A study of Mus musculus with 24 samples.

Results

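The chromatin regions called open on day 0 (D0) of a cardiac differentiation course were compared with those open on day 15 (D15), its last day. The comparison used 4 of the 24 samples of the series, 2 biological replicates of each day. The labels name 1 peak list for both replicates of a day, so 2 lists were compared, and no value has a spread between replicates. Every interval of either list entered. Intervals that overlapped by at least 1 bp were joined into 46400 regions, each of which was shared, D0-only or D15-only. A region missing from a list was not called there, which does not show that it was closed.

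All samples came from A2lox.cre, an established line of mouse embryonic stem cells that carries a docking site for transgenes. The D0 samples carry the label of an intermediate of cardiac differentiation, and the D15 samples that of a cardiomyocyte. Other lists of the same course, used here only to follow the regions, came from the 2i stage, in which inhibitors hold stem cells in naive pluripotency, from D1 to D8 and from D10. No sorting step is named in the labels, so each list describes the whole culture of 1 cell line.

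ATAC-seq uses the Tn5 transposase, which inserts sequencing adapters where DNA is not covered by nucleosomes, so that reads pile up over promoters and enhancers in use. Embryonic stem cells keep enhancers of the OCT4, SOX2, NANOG, KLF and ESRRB network open. In cardiomyocytes, GATA, TBX, HAND, MEF2, NKX2-5 and TEAD factors bind the enhancers of contractile, ion channel and metabolic genes. Promoters of genes that every cell uses are mostly rich in CpG and open in all cell types.

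Gene starts are shown first, since their sequence could be read. The RefSeq table of assembly GRCm38.p6 (mm10) gave 21045 windows, from 250 bases before to 50 bases after a start, for 17274 genes. Intervals of both days covered 10288 windows (48.9%). Of all windows, 925 (4.4%) were covered at D0 only and 1081 (5.14%) at D15 only. Those counts include 125 and 249 windows, respectively, that lay in a shared region which reached the window on 1 day only, and 8751 windows were covered on neither day. Of the 242 listed genes described below, 173 had a window.

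The 250 bases before the start are printed for 6 listed genes with the highest fold enrichment among those whose start lay in a D0-only or a D15-only region. Capitals mark a match on either strand to any of the 16 motifs searched. The D0-only starts were that of Zfp42 (also called Rex1, a zinc finger gene used as a marker of naive stem cells) at chr8:43307010-43307259, minus strand, 1 of 2 D0-only starts of Ocln (occludin, of tight junctions) at chr13:100552719-100552968, minus strand, and 1 of 2 starts of Lhx2 (a homeobox factor of forebrain and eye, whose other start was covered on both days) at chr2:38339031-38339280, plus strand.
Zfp42: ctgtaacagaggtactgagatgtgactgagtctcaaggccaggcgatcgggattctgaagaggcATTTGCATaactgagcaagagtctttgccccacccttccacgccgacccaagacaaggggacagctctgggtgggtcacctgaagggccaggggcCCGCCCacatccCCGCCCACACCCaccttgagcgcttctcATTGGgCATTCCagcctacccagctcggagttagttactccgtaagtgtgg
Ocln: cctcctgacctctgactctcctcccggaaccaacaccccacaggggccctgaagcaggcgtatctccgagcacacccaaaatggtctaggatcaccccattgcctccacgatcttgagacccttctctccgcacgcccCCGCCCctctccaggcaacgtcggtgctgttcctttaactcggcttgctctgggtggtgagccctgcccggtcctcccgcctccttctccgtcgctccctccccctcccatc
Lhx2: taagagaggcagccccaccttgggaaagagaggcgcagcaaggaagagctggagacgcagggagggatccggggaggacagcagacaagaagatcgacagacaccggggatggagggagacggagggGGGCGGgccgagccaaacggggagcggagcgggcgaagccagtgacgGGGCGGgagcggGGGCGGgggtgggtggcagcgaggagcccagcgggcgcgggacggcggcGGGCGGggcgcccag
The D15-only starts were that of Col1a2 (a chain of type I collagen) at chr6:4505368-4505617, plus strand, 1 of 2 starts of Tnnt2 (cardiac troponin T of the thin filament, whose other start was covered on neither day) at chr1:135836084-135836333, plus strand, and that of Tcf21 (a bHLH factor of epicardium and fibroblast precursors) at chr10:22820144-22820393, minus strand.
Col1a2: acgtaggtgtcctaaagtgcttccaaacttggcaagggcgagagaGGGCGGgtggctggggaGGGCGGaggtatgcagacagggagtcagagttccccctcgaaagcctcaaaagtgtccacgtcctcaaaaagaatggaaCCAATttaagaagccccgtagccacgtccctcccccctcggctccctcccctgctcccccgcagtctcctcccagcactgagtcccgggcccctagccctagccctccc
Tnnt2: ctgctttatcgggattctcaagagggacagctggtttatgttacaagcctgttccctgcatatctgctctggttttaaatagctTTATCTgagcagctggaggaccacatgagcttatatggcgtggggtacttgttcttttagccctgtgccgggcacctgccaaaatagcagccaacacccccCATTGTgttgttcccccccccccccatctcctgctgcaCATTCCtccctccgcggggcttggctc
Tcf21: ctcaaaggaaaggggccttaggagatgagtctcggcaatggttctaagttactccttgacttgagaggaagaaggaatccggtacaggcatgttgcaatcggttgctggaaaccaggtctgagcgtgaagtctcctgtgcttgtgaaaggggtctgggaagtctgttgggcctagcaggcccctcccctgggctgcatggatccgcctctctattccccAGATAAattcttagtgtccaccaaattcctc

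The Zfp42 sequence held an octamer (ATGCAAAT), the motif of POU factors such as OCT4, which was present in 1.68% of all windows. It also held a KLF motif (GGGTGTGG, 3.64% of windows), whose bases overlapped 1 of its 2 SP motifs (GGGCGG, 46.7%), an NFY motif (CCAAT, 38.5%) and a TEAD motif (GGAATG, 13.5%). The Tnnt2 sequence held a GATA motif (AGATAA, 9.68%), a SOX motif (ACAATG, 10.5%) and a TEAD motif. That of Tcf21 held a GATA motif, that of Ocln 1 SP motif, that of Lhx2 4 SP motifs, and that of Col1a2 2 SP motifs and an NFY motif. These matches are strings of letters and do not show that a factor was bound.

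The table held no window on chromosome 18. Windows covered on 1 day were lower in GC and CpG than windows covered on both. The median GC content was 63.3% in windows of both days, 59.0% in D0-only, 57.7% in D15-only and 48.0% in uncovered windows. The ratio of observed to expected CpG had medians of 0.813, 0.529, 0.592 and 0.204 in the same order. The SP motif was in 73.0% of windows of both days, 55.1% of D0-only windows (Wilson 95% interval 51.9 to 58.3), 49.2% of D15-only windows (46.2 to 52.2) and 14.5% of uncovered windows. Such intervals cover counting error only.

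Motifs of stem cell factors had higher shares in D0-only than in D15-only windows, within counting error. The octamer was in 2.05% (1.32 to 3.19) of D0-only and 0.74% (0.375 to 1.45) of D15-only windows. The KLF motif was in 5.51% (4.22 to 7.18) and 3.52% (2.57 to 4.79), and the SOX motif in 8.65% (7.0 to 10.6) and 6.29% (4.99 to 7.9). The order was the opposite for the TEAD motif, with 13.0% (11 to 15.3) and 16.2% (14.1 to 18.5), and for the GATA motif, with 7.46% (5.94 to 9.33) and 8.42% (6.91 to 10.2). Each of these pairs of intervals overlapped. The intervals also overlapped between the 2 classes for NKX2 (CCACTTNA, 3.08% of all windows), T-box (AGGTGTNA, 2.81%), the E-box of HAND and TWIST (CAGATG, 14.4%), MEIS (TGACAG, 18.3%), AP-1 (TGANTCA, 7.04%), ESRRB (TCAAGGTCA, 0.337%), NRF1 (GCGCATGCG, 2.37%), MEF2 (0.494%) and the CArG box of serum response factor (1.54%). The octamer was in 1.68% of all and 2.07% of uncovered windows, and the KLF motif in 3.64% and 3.57%. For the SOX, TEAD and GATA motifs these values were 10.5% and 16.6%, 13.5% and 16.6%, and 9.68% and 16.2%. The SOX and GATA shares of D0-only and D15-only windows were thus below those of all windows.

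MicroRNAs of the stem cell state had D0-only regions beside their clusters. A list of 23 miRNAs was looked up within 10 kb of their hairpins, of which 19 were in the RefSeq table of the same assembly. The mature miRNAs of the Mir290 and Mir302 clusters printed here share the seed in capitals (bases 2 to 8), which is known to act on cell cycle inhibitors in stem cells.
miR-291a-3p: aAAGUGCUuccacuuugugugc
miR-294-3p: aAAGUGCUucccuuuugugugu
miR-295-3p: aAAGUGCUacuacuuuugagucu
miR-302b-3p: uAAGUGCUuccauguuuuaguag
miR-302d-3p: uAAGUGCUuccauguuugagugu
A D0-only region at chr7:3211977-3212541 lay 6.08 kb from the Mir290a hairpin with a fold enrichment of 6.17, and it was also called at 2i and from D1 to D3. A weaker D0-only region, with a fold of 2.86, lay 4.64 kb from that hairpin. The Mir302 cluster had a D0-only region at chr3:127544599-127545227 that ended 0.001 kb before the Mir302b hairpin, with a fold of 6.82. That region was called at 2i and from D1 to D6 as well, later than the Mir290 region. A shared region at chr3:127552646-127553802 lay 7.34 kb from the same hairpin.

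The reverse was seen at Mir21a, a miRNA known from fibroblasts and stressed heart muscle, which carries another seed.
miR-21a-5p: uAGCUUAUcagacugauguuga
Its D15-only region at chr11:86586511-86587584, with a fold of 7.32, lay 2.35 kb from the hairpin and was called from D2 on. The muscle miRNAs Mir208a and Mir208b, which sit in the cardiac myosin genes, and Mir133b and Mir206 had no region of either day within 10 kb. Mir499 had a D0-only region 9.21 kb away, with a fold of 4.97. A shared region lay over the hairpin of Mir199a-2.

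The D15 list was the shorter of the 2, and a larger part of it was shared. The D0 list held 40370 summits in 35151 intervals that covered 21.6 Mb, and the D15 list 36248 summits in 25413 intervals that covered 18.4 Mb. Of the 46400 regions, 13946 (30.1%) were shared, 21060 (45.4%) were D0-only and 11394 (24.6%) were D15-only. Of the D0 intervals, 40.1% (39.6 to 40.6) lay in shared regions, and of the D15 intervals, 55.2% (54.6 to 55.8). With the top 25413 intervals of each list by −log10 p, these shares were 49.9% and 49.8%.

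D0-only regions outnumbered D15-only regions under both stricter thresholds too. With equal numbers of intervals, 12601 regions were shared, 12733 were D0-only and 12750 were D15-only, and lists of equal length give nearly equal 1-day counts by construction. Among intervals with a −log10 q of at least 5, 10721 were shared, 9582 D0-only and 7242 D15-only. At a fold of at least 5, 9374 were shared, 8938 D0-only and 5320 D15-only. The share of regions in both lists was 30.1% in full, 33.1% with equal numbers, 38.9% at that q and 39.7% at a fold of at least 5. At a fold enrichment of 4.9 to 5.1 the median −log10 p was 8.75 in the D0 list and 11.5 in the D15 list, and the part of this difference in the calls was not tested. Read depth is unknown.

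**Figure D1:**
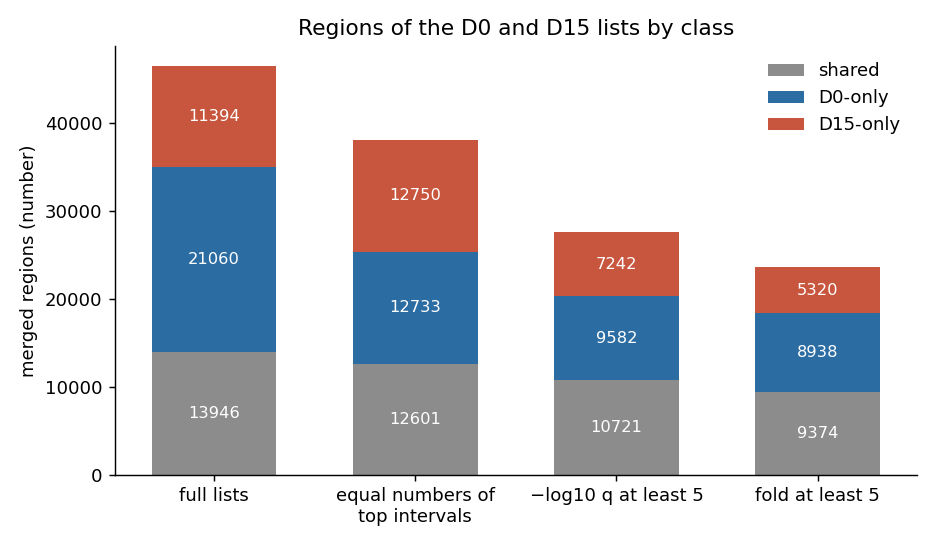
Number of merged regions that were shared, D0-only or D15-only (vertical axis), with the full lists, equal numbers of top intervals, intervals with −log10 q of at least 5 and intervals with a fold of at least 5. D0-only regions outnumber D15-only regions 21060 to 11394 in full and 8938 to 5320 at a fold of at least 5, and equal numbers of intervals make both counts nearly equal (12733 and 12750) by construction.

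More intervals of the D15 list held several summits. Its median width was 651 bp against 540 bp at D0, and 30.2% (29.7 to 30.8) of its intervals held several summits, against 12.8% (12.4 to 13.1) at D0. With the top 25413 intervals of each list the medians were nearly the same, 643 bp at D0 and 651 bp at D15, whereas the shares with several summits were 17.3% and 30.2%. The D15 list stood apart in this from the whole course, since the next highest share, at D10, was 18.8%. The most summits in 1 interval were 11 at D15 and 6 at D0.

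Shared intervals were broader than the others on both days. Shared intervals had a median width of 756 bp (quartiles 549 to 975) at D0 and 905 bp (645 to 1164) at D15. D0-only intervals had a median of 438 bp (339 to 606) and D15-only intervals one of 407 bp (288 to 593). With equal numbers, shared intervals had medians of 790 and 934 bp, D0-only intervals one of 509 bp and D15-only intervals one of 423 bp. Several summits were held by 23.7% (23.0 to 24.4) of shared D0 intervals and 43.9% (43.1 to 44.7) of shared D15 intervals. The same share was 5.44% (5.14 to 5.75) in D0-only and 13.4% (12.8 to 14.1) in D15-only intervals. Within the D0 list the median fold was 6.48 in shared and 4.41 in D0-only intervals, and within the D15 list it was 7.5 in shared and 4.18 in D15-only intervals.

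**Figure D2:**
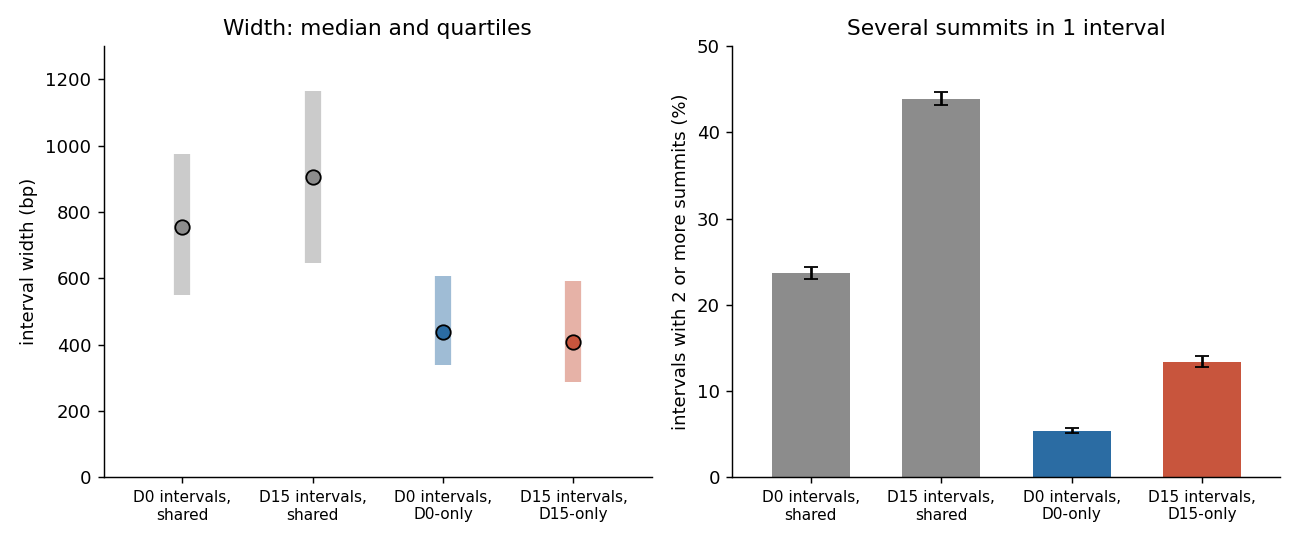
Left, interval width in bp (circles are medians, bars span the quartiles); right, percent of intervals with 2 or more summits (bars, with Wilson 95% intervals), by list and class. Shared intervals are broader at D15 (905 bp) than at D0 (756 bp), and intervals called on 1 day are narrower, with medians of 438 bp at D0 and 407 bp at D15.

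The same regions could be set side by side in 13732 cases in which 1 D0 interval met 1 D15 interval. The D15 interval was the wider in 70.9% (70.1 to 71.6), with a median ratio of widths of 1.18 (quartiles 0.959 to 1.44). It held more summits in 33.1% and fewer in 8.38%. The strongest summits of both days lay a median of 68 bp apart, and within 100 bp in 61.0%. Of the pairs within 1 kb of a gene start, 76.4% (75.5 to 77.3) were wider at D15, against 61.1% (59.7 to 62.4) of the pairs with no start so near.

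Single regions show these differences. At the start of Sox12, a SoxC factor gene, a shared region of 3448 bp held 3 summits at D0 and 11 at D15. At Hivep2, a zinc finger gene, a region of 3341 bp held 4 and 9 summits. At Stat6, which transmits interleukin signals, a region of 2362 bp held 1 and 8. Among D15-only regions, the ones with 5 summits included a 1441 bp region inside Dnmt3a (a DNA methyltransferase), the start of Tgfb1 (a growth factor that drives fibroblasts) and a region in Flnc (filamin C of muscle). The broadest D0-only regions were 1993 bp at Adra2c, an adrenergic receptor, and 1926 bp at Sox17, an endoderm and endothelial factor.

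Shared regions lay at gene starts, and regions of 1 day mostly did not. A centre within 1 kb of either end of a protein-coding gene was found for 68.4% (67.7 to 69.2) of shared, 6.33% (6.01 to 6.67) of D0-only and 10.7% (10.1 to 11.3) of D15-only regions. The annotated start itself was within 1 kb of 64.3%, 4.71% and 8.6%, without chromosome 18. The median distance to a gene end was 0.273 kb, 41.9 kb and 22.3 kb.

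D15-only regions lay nearer to genes than D0-only regions. They fell inside a gene body in 52.5% (51.5 to 53.4), against 40.2% (39.5 to 40.8) of D0-only regions. Over 50 kb from any protein-coding gene were 18.4% (17.7 to 19.1) of D15-only, 33.9% (33.3 to 34.6) of D0-only and 3.87% (3.56 to 4.21) of shared regions. With non-coding genes included, these shares were 4.77%, 14.8% and 1.0%. The order of the 3 classes was kept with equal numbers and with both stricter thresholds.

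**Figure D3:**
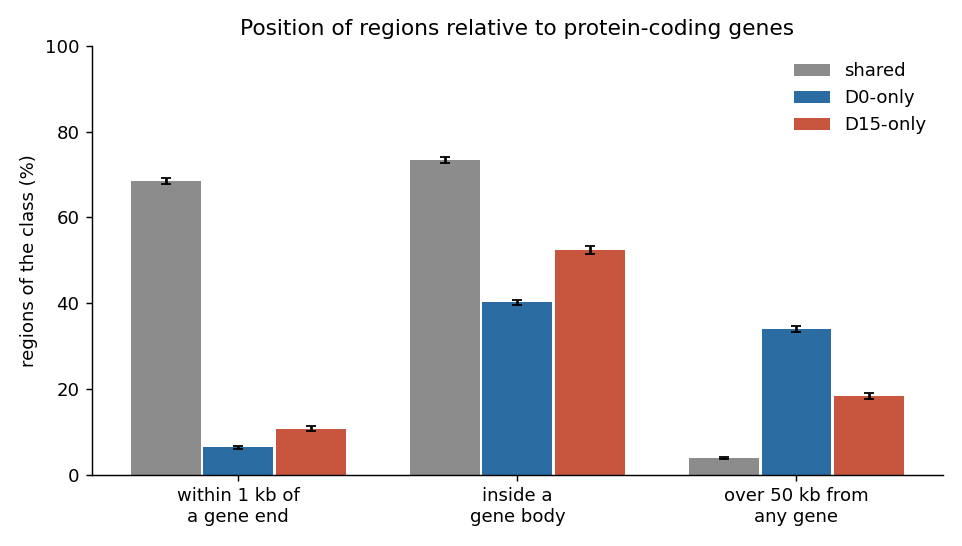
Percent of the regions of each class (vertical axis, with Wilson 95% intervals) by position relative to protein-coding genes. The groups are within 1 kb of a gene end, inside a gene body and over 50 kb from any such gene. A region can count in more than 1 group. D0-only regions are over 50 kb from genes more often (33.9%) than D15-only (18.4%) or shared regions (3.87%).

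D0-only regions were called most often in the early lists of the course, and D15-only regions in the late ones. Of D0-only regions, 63.9% (63.2 to 64.5) were called at 2i and 43.7% at D1, and the share was 27.5% at D4, 10.1% at D6, 22.3% at D7 and 5.99% at D10. Of D15-only regions, 10.4% were called at 2i, 5.09% at D1, 24.0% at D4, 32.2% at D6, 60.7% at D7, 62.4% at D8 and 51.4% at D10. Shared regions were called in 87.2% to 98.7% of cases. The lists differ in length, from 25413 intervals at D15 to 57912 at D7. With the top 25413 intervals of each list, D15-only regions were called in 34.4% at D6, 39.9% at D7, 45.4% at D8 and 53.3% at D10, and D0-only regions in 59.3% at 2i, 55.9% at D1 and 10.4% at D7. The higher values of D7 and D8 over D10 for D15-only regions were seen with the full lists and not with equal numbers.

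**Figure D4:**
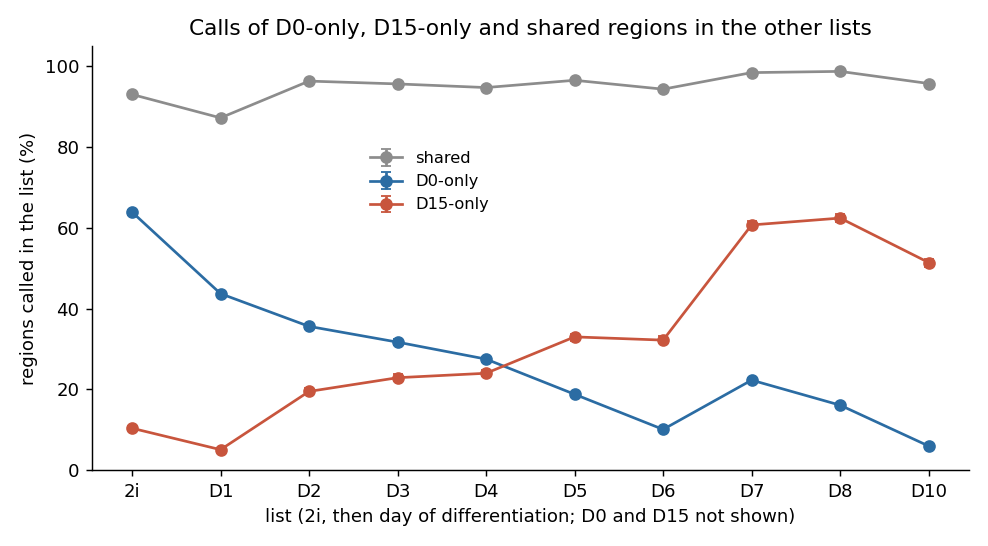
Percent of D0-only, D15-only and shared regions (vertical axis, with Wilson 95% intervals mostly smaller than the points) called in each of the other 10 lists, full length (horizontal axis). D0-only regions go from 63.9% at 2i to 5.99% at D10 and D15-only regions from 10.4% to 51.4%, with the highest value, 62.4%, at D8.

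Many regions of both classes had short runs of calls, counted with the full lists. The D1 list held 27137 intervals against 35151 at D0, and called 87.2% of shared regions. With the top 25413 intervals of each list, 55.9% of D0-only regions were called at D1. Counted from D0 without a gap, 56.3% of D0-only regions were not called at D1 and 20.1% were called up to D1 and no further. Of the D0-only regions, 23.8% were missing at D1 and called again later. Of D15-only regions, 48.6% were not called at D10, and 15.5% were called without a gap from D7. Regions in none of the other 10 lists numbered 3741 (17.8%) among D0-only and 2602 (22.8%) among D15-only regions.

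Each region was tied to at most 1 protein-coding gene, the one whose body held its centre or, failing that, the nearest within 50 kb. A gene without a region in these counts can still have one within 50 kb that was tied to a neighbour. Of 21631 protein-coding genes, 7363 (34.0%) had a D0-only region and 5556 (25.7%) a D15-only region. Over these genes, D15-only regions made up 40.1% of the regions called on 1 day, and 55.6% with equal numbers. Left and right stand for lower and higher coordinates, and an end of a gene is either of its boundaries, whatever its strand. Since fold values of both lists rest on different backgrounds, they are given only as each list's own value. In such bulk cultures, fewer cells of a type and less open chromatin per cell cannot be told apart. Counts of regions per list of genes carry Wilson intervals, although regions of 1 gene are not independent.

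Naive pluripotency genes had D0-only regions, and few others. All 18 genes of that list had a D0-only region, against 34.0% of all genes, and 3 had a D15-only region, against 25.7%. In total the list had 53 D0-only, 5 D15-only and 11 shared regions. D15-only regions made up 8.62% (3.74 to 18.6) of those called on 1 day, against 40.1% over all genes, and 14.6% with equal numbers, against 55.6%. Esrrb, an orphan nuclear receptor of the naive network, had most, with 9 D0-only regions and none of any other class. Of these, 8 lay inside its body, between chr12:86395217 and chr12:86502190, with folds of 2.96 to 6.6.

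Zfp42 had 7 D0-only regions and no other. The region at its start, chr8:43306824-43307458, whose sequence is shown above, had a fold of 10.14 and was called from 2i to D8. A stronger one 14 kb to the right, at chr8:43320689-43321358, had a fold of 14.52 and was called only at 2i, D0 and D1. Klf5, a Krüppel-like factor of stem cells, had 4 D0-only regions 11.6 to 41.6 kb to its right. Dppa3, a marker of naive and germ cells, had 3. Tfcp2l1, a factor of the naive network, had 3, with folds of 2.63 to 6.25, and a shared region at its start.

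Among the central factors of pluripotency, Sox2 and Nanog also had shared regions. Pou5f1, which encodes OCT4, had 1 D0-only region 1.86 kb to its left, with a fold of 3.4, which was also called at 2i and D2. Sox2 had a shared region over the gene, with folds of 4.46 in the D0 list and 3.88 in the D15 list, and 3 D0-only regions. Its start window lay in a shared region but was covered at D0 only. Nanog had 2 shared regions, 1 D0-only and 1 D15-only region. Klf2, a Krüppel-like factor that endothelium also uses, had 2 D0-only and 3 D15-only regions, the strongest of the latter 23.2 kb to its left with a fold of 7.93. Klf4, of the same family, had 2 shared regions, 1 D0-only region with a fold of 2.89 and 1 D15-only region with a fold of 5.76.

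Formative and primed pluripotency genes had regions of both classes, with a D15-only share near that of all genes. Of 13 genes, 10 had a D0-only and 7 a D15-only region, against 34.0% and 25.7% of all genes. The regions numbered 23 and 14. The D15-only share was 37.8% (24.1 to 53.9) of the regions of 1 day, against 40.1% over all genes. Otx2, which guides the exit from naive pluripotency, had 5 D0-only regions and none of another class, and Foxd3, a forkhead repressor, had 5 beside 1 shared. Dnmt3a had 5 D15-only and 1 D0-only region, and Lef1, a mediator of WNT signals, had 4 and 3. Dnmt3b had a shared region at its start and a D15-only region 23.2 kb to its right with a fold of 9.33. Fgf5, a marker of primed cells, had 1 region of each class.

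Streak and early mesoderm genes also had regions of both classes, 13 D0-only and 10 D15-only over 17 genes. The D15-only share, 43.5% (25.6 to 63.2), was near the 40.1% over all genes. Bmp4, a mesoderm inducer, had 3 D0-only and 2 D15-only regions, the latter with 1 at its start that had a fold of 2.15. Kdr, a receptor of early mesoderm and endothelium, had a shared region at its start and a D15-only region inside its body with a fold of 6.0. A D0-only region 35.1 kb to its right had a fold of 4.41. Mesp1, which marks the first cardiac precursors, had 1 region, D15-only, 5.46 kb to its right with a fold of 2.98. Msgn1, of presomitic mesoderm, had 2 D15-only regions and no other. The start of T, the brachyury gene of the primitive streak, lay in a D0-only region, chr17:8433999-8434533, with a fold of 4.41. Its centre falls in an overlapping gene, so that it is not in the counts of T.

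Cardiac transcription factors had 35 D15-only, 29 D0-only and 31 shared regions. A D0-only region was found in 14 of the 22 genes, against 34.0% of all genes, and a D15-only region in 14, against 25.7%. D15-only regions made up 54.7% (42.6 to 66.3) of the regions of 1 day, against 40.1% over all genes, and 71.9% with equal numbers, against 55.6%. Gata4, a zinc finger factor that heart muscle needs from the start, had 5 D15-only regions with folds of 2.76 to 5.21. One of them was 0.048 kb from an end of the gene, with a fold of 4.68, and another 11.9 kb to the right held 3 summits and was called from D5 on. Meis1, a homeobox factor of cardiac precursors, had 7 D15-only regions and 1 D0-only region. Tead1, which binds the promoters of contractile genes, had 5 D15-only regions, with a fold of 9.7 at 22.8 kb to its left, and 3 D0-only regions.

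Hand1 and Tbx5 had D15-only regions and no other. Hand1, a bHLH factor of the left ventricle, had one at 0.123 kb from an end of the gene with a fold of 2.65, called from D3 on. Tbx5, whose dose sets chamber identity, had 1 inside its body with a fold of 3.63, called at D7, D8 and D15. Gata6, a relative of Gata4, had a D15-only region inside its body with a fold of 4.42 and a shared region at an end of the gene that held 1 summit at D0 and 4 at D15. Zfpm2, the GATA4 partner FOG2, had 5 D15-only and 5 D0-only regions.

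Several cardiac factors had more D0-only than D15-only regions, or mostly shared ones. Isl1, of the second heart field, had 3 D0-only regions and a shared region at its start. Meis2 had 6 D0-only regions and 1 D15-only region, in contrast to Meis1. Nkx2-5, a homeobox factor of heart precursors, had a D0-only region inside the gene with a fold of 5.22, also called at D2, D3 and D6 to D8, and a D15-only region 16.6 kb to the right with a fold of 5.6. The latter was called in no other list. Mef2c had 4 shared regions, 3 D0-only and 1 D15-only region, the last with a fold of 8.32. Hand2 had 5 shared regions, and Tbx20 a shared one at its start with folds of 4.58 in the D0 list and 7.2 in the D15 list. The start window of Hand2 lay in a shared region but was covered at D15 only. Myocd, of the coactivator myocardin, had a shared region at an end of the gene and no other.

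Sarcomere genes had D15-only regions in 14 of 24 cases, against 25.7% of all genes, and D0-only regions in 7, against 34.0%. The regions numbered 17 D15-only, 13 D0-only and 9 shared. D15-only regions made up 56.7% (39.2 to 72.6) of those of 1 day, an interval that includes the 40.1% over all genes. With equal numbers the share was 66.7% (47.8 to 81.4), against 55.6%. It was 4.2 points above that of all genes at a −log10 q of at least 5, and 7.8 at a fold of at least 5. Tnnt2 had 1 region, D15-only over its start, with a fold of 5.6, called from D5 on without a gap. Des, the gene of the intermediate filament desmin, had 1 region, D15-only at its start, with a fold of 5.31 and 3 summits, called from D2 on. Tpm1, of tropomyosin, had one at its start with a fold of 5.29 beside a shared region. Myl7, the atrial light chain, had a D15-only region 3.91 kb to its left with a fold of 4.64 and 3 summits. Tnni1, of the troponin I of the fetal heart, had 2 D15-only regions. Actc1, of cardiac actin, had a shared region and a D15-only region beside it, 4.72 and 5.34 kb to its right.

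The label of D15 as cardiomyocytes was checked against these genes, and some defining ones had no region. Of the 20 sarcomere genes with a start window, 14 had none covered on either day, against 6744 of 17274 genes with a window. In 3 of the 20 a start was covered at D15 only. Myh6, the adult alpha myosin heavy chain, had no region of either day tied to it, nor did Tnnc1, Mybpc3 and Tcap. Regions that lay nearer to a neighbouring gene were tied to that gene. Myh7, the beta chain of the fetal heart, had 1 D15-only region 9.53 kb to its right with a fold of 3.83. Myl2, the ventricular light chain, had 2 D0-only regions, and Ttn, of titin, had 1. Actn2, of the Z disc, had a shared region at its start with folds of 7.74 in the D0 list and 5.04 in the D15 list. Nebl, of nebulette, had 6 D0-only and 3 D15-only regions over its long body.

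Genes of calcium handling, ion channels and cardiac hormones had 47 D0-only, 37 D15-only and 14 shared regions over 18 genes. Their D15-only share was near that of all genes, with 44.0% (33.9 to 54.7) against 40.1%. With equal numbers it was 55.1% against 55.6%. Cacna1c, which forms the main calcium entry of heart muscle, had 6 D15-only regions with folds of 3.36 to 5.55, no D0-only region and 2 shared ones. Kcnq1, of a repolarising potassium channel, had 6 D15-only and 4 D0-only regions. Kcnh2, of another such channel, had 3 D15-only regions, and Slc8a1, the sodium-calcium exchanger, had one at its start with a fold of 4.83. Gja1, of the gap junction protein connexin 43, had 5 of each, with a D15-only region at its start that had a fold of 4.99. A shared region 48.8 kb to its left had folds of 6.82 in the D0 list and 18.17 in the D15 list.

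Other genes of this list had more D0-only regions. Trdn, of triadin in the calcium release complex, had 9 D0-only regions and no other, and the strongest, with a fold of 11.65, was among the 10 strongest of all D0-only regions. Ryr2, the calcium release channel, had 6 D0-only and 5 D15-only regions and a shared one at its start. Pln, which restrains the calcium pump, had 1 D0-only region, Nppb, a natriuretic peptide gene, had 1 shared region, and Nppa had none.

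Genes of oxidative metabolism of muscle had 18 D15-only and 13 D0-only regions over 14 genes. Their D15-only share was 58.1% (40.8 to 73.6), against 40.1% over all genes. With equal numbers it was 73.3% (55.6 to 85.8), against 55.6%. Ppargc1a, a coactivator of mitochondrial genes, had 6 D15-only and 5 D0-only regions. Mb, of myoglobin, had 3 D15-only regions, the strongest with a fold of 6.49 and 3 summits, and 1 D0-only region. Esrrg, of an orphan nuclear receptor of mitochondrial genes, had 4 D15-only and 2 D0-only regions. Pdk4, a kinase that turns muscle to fat burning, had a D0-only region with a fold of 10.83 and a D15-only region with a fold of 7.77.

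Smooth muscle and fibroblast genes had the highest shares of D15-only regions among the lists of cell types, with the full lists. At a −log10 q of at least 5 their shares were 40.4 and 37.3 points above that of all genes, but the few regions of skeletal muscle genes were 51.5 points above it. At a fold of at least 5 the values were 32.8, 43.5 and 57.8 points. AP-1 and housekeeping genes, which are not lists of cell types, came near the fibroblast value with the full lists. They were 32.7 and 34.9 points above all genes, against 35.6 for epicardial and fibroblast genes. All 8 smooth muscle genes had a D15-only region, against 25.7% of all genes, and 2 had a D0-only region, against 34.0%. The regions numbered 18 and 2, so that 90.0% (69.9 to 97.2) of those of 1 day were D15-only, against 40.1% over all genes. Acta2, of smooth muscle actin, had 3 D15-only regions, 1 of them at its start with a fold of 4.16, and 1 D0-only region 14.8 kb to its right with a fold of 8.83. Tagln, of transgelin, had 2 D15-only regions, Myh11, the smooth muscle myosin, 2, and Cald1, of caldesmon, 3. Mylk, the kinase of myosin light chains, had 5 with folds of 2.87 to 5.57.

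Of 14 epicardial and fibroblast genes, 11 had a D15-only region, against 25.7% of all genes, and 7 a D0-only region, against 34.0%. The regions numbered 28 and 9, a D15-only share of 75.7% (59.9 to 86.6), against 40.1% over all genes. Wt1, a zinc finger factor of epicardium, had 5 D15-only regions and 1 D0-only region. Tcf21 had 4 D15-only regions and no other, with a fold of 5.4 at its start. Col1a2 had 4, with a fold of 7.62 at 15.8 kb to its left and 6.96 at the start shown above, the latter called from D1 on.

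Other matrix genes had D15-only regions too. Col1a1 had 2 D15-only regions, the stronger with a fold of 7.85, and Col3a1 had 2. Dcn, of decorin, had 3, and Lum, of lumican, had 2 with folds of 7.26 and 6.08 that were called in no other list. Postn, of periostin in activated fibroblasts, had 1 with a fold of 3.09, and its 2 start windows were covered on neither day. Fn1, of fibronectin, had no D15-only region. It had 2 D0-only regions, with a fold of 10.4 at 20.4 kb to its right, and a shared one near an end of the gene.

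Markers of other cells were mixed, and their part in the counts of cardiac genes was not tested. The D15-only share was 52.9% (36.7 to 68.5) for endothelial, 46.7% (24.8 to 69.9) for blood and 40.0% (11.8 to 76.9) for skeletal muscle genes. Each interval includes the 40.1% over all genes. Endothelial genes had 18 D15-only and 16 D0-only regions. A D15-only region was found in 8 of 11 genes, against 25.7% of all genes, and Tie1 had no region. Erg, an endothelial ETS factor, had 4 D15-only regions, Pecam1, of the adhesion molecule CD31, had 3 of each class, and Cdh5, of vascular cadherin, had 5 D0-only and 2 D15-only regions. Blood genes had 7 D15-only and 8 D0-only regions, with a D15-only region in 4 of 9 genes and none of any class at Gata1 and Gfi1b. Tal1, which starts the blood program, had 1 D15-only, 1 D0-only and 2 shared regions. Runx1, of definitive blood stem cells, had 3 D15-only regions and 1 D0-only region, and Ptprc, of the leukocyte marker CD45, had 4 D0-only regions and no other. Skeletal muscle genes had 2 D15-only, 3 D0-only and 1 shared region over 10 genes, and Myod1, the master factor of that tissue, had none. Its D0-only regions were all at Pax3, which acts in precursors of muscle and neural crest.

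Genes of neural ectoderm and endoderm had mostly D0-only regions. Of all genes, 34.0% had a D0-only and 25.7% a D15-only region, and the D15-only share was 40.1%, or 55.6% with equal numbers. Of 13 neural genes, 12 had a D0-only and 3 a D15-only region, with 21 and 3 regions and a D15-only share of 12.5% (4.34 to 31.0), or 20% with equal numbers. Sox1, a factor of neural progenitors, had 4 D0-only regions, and Pax6, of eye and forebrain, had 4 and 1 D15-only region. Of 10 endoderm genes, 7 had a D0-only and 2 a D15-only region, with 12 and 2 regions and a share of 14.3% (4.01 to 39.9), or 22.2% with equal numbers. Foxa2, of endoderm and floor plate, had 2 D0-only regions and 1 D15-only region, and Foxa1, its relative, had 4 D0-only regions.

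Counts of epithelial junction genes depended on the threshold. Junction genes had 9 D0-only and 11 D15-only regions over 12 genes, a D15-only share 14.9 points above that of all genes. At a −log10 q of at least 5 that difference was −23.5 points, and at a fold of at least 5 it was −22.2. For genes of the mesenchymal transition the difference was 12.3 points in full, 18.2 at that q and 21.4 at that fold. Cdh1, of E-cadherin, had 4 D0-only regions, among them one at an end of the gene with a fold of 5.19 that was called in all lists but D15, and 1 D15-only region. The start of Ocln, shown above, lay in a D0-only region with a fold of 7.17. Mesenchymal genes had 10 D0-only and 11 D15-only regions over 9 genes, and Cdh2, of N-cadherin, had 3 of each. Zeb2, a repressor of E-cadherin, had 4 D0-only regions, and Cdh11, of a mesenchymal cadherin, had 3 D15-only and 2 D0-only regions.

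AP-1 factors and housekeeping genes had mostly shared regions. AP-1 genes had 13 shared, 8 D15-only and 3 D0-only regions over 8 genes, and Fos, an immediate early gene, had 3 D15-only regions beside 3 shared. Fosb and Fosl2, of the same family, had 2 D15-only regions each. The D15-only share of AP-1 genes was 72.7% (43.4 to 90.3) of the regions of 1 day. Of 12 housekeeping genes, 11 had a shared region, and Actb, of cytoplasmic actin, alone had regions of 1 day, with 3 D15-only and 1 D0-only. The D15-only share of housekeeping genes thus rests on Actb, and its interval, 30.1 to 95.4, includes the 40.1% over all genes. At Gapdh, of glycolysis, the shared region held 2 summits at D0 and 5 at D15.

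**Figure D5:**
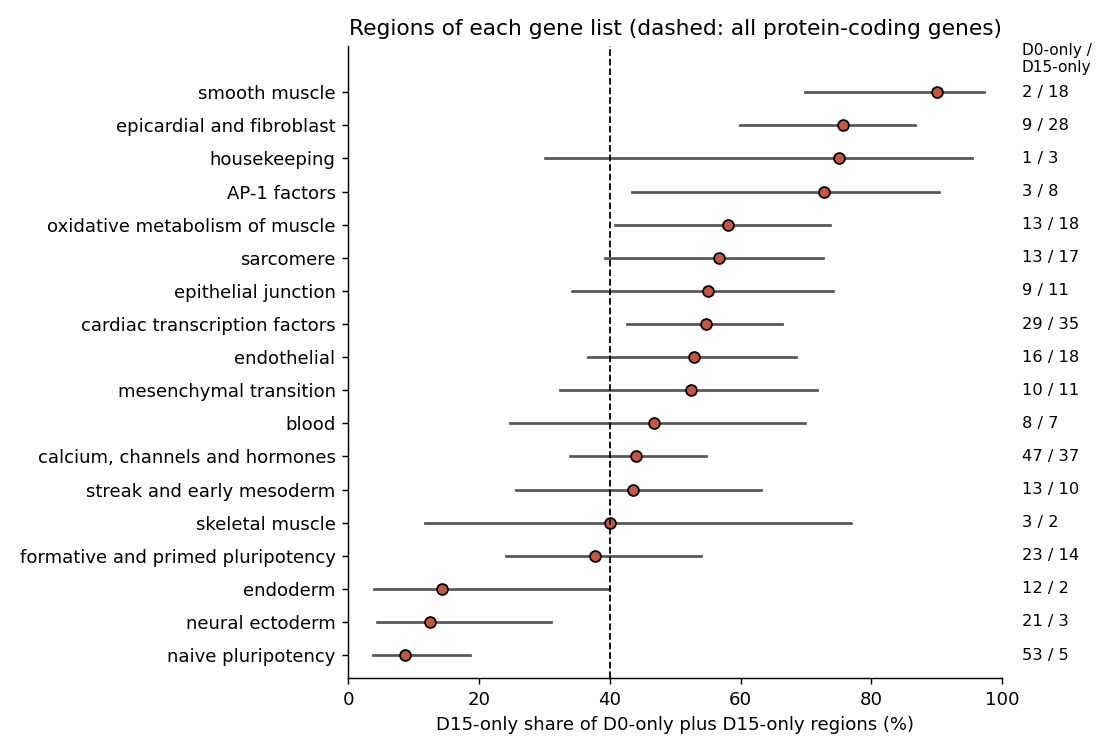
D15-only regions as a percent of D0-only plus D15-only regions (horizontal axis; points, with Wilson 95% intervals as bars) for the 18 gene lists, with both counts at the right and the value of all protein-coding genes, 40.1%, as a dashed line. Smooth muscle (90.0%) and epicardial and fibroblast genes (75.7%) lie to the right of the line and naive pluripotency (8.62%), neural ectoderm (12.5%) and endoderm genes (14.3%) to its left. AP-1 genes (72.7%) and housekeeping genes also lie to the right of the line, near epicardial and fibroblast genes. The housekeeping interval (30.1 to 95.4) includes the line.

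Over all genes, the largest counts of D0-only regions were at long genes. Macrod2, an ADP-ribose hydrolase gene of 2000 kb, had 32 D0-only and 4 D15-only regions. Pde4d, a phosphodiesterase gene, had 27 and 5, Dlg2, of a synaptic scaffold, had 25 and 3, and Cntnap2, a neurexin family gene of 2240 kb, had 22 and 2. The 10 genes with most D0-only regions were 1020 to 2240 kb long. Cntn5, of a neural contactin, had 18 D0-only regions and none of another class.

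The 10 genes with most D15-only regions were 124 to 1040 kb long. Wwox, a tumour suppressor gene of 913 kb, had 14 D15-only and 3 D0-only regions. Bcor, of a BCL6 corepressor, had 13 and 3 over 124 kb. Lrmda had 13 D15-only regions and none of another class over 1040 kb, and Maml3, a coactivator of NOTCH, had 11 and no D0-only region. Ephb2, an ephrin receptor gene, had 8 and none.

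Apart from the one in Trdn, the 10 strongest D0-only regions were tied to no listed gene. By −log10 p at D0 the first lay inside Lrp1b, a lipoprotein receptor gene, at chr2:40910577-40911251, with a fold of 17.49 and calls from 2i to D4. The next 9 had folds of 11.65 to 15.06, and the 10 were 594 to 1001 bp wide. Another of them was 948 kb from the nearest protein-coding gene, Fam98a.

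Most of the strongest D15-only regions were narrow. By −log10 p at D15 the first lay inside Chl1, of a neural adhesion molecule, at chr6:103649061-103649292, 232 bp wide with a fold of 37.62. Of the 10 strongest, 7 were 214 to 313 bp wide, against a median of 407 bp for D15-only intervals, and those near Rab10, Myl12b, Rimbp3 and Samd9l had folds of 24.56 to 30.49. These 5 regions were also called in 1 to 7 other lists. The others among the 10 were broader, at Zdhhc14 (867 bp), Irs2 (687 bp), an adaptor of the insulin receptor, and at the start of Tmem176b (1350 bp, 2 summits, fold 9.99).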

How the data were processed

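ATAC-seq libraries of the A2lox.cre line were made in duplicate at 12 stages. The submitters' processing notes name build mm10, the peak caller MACS2 2.1.1, the aligner Bowtie2 2.3.2, and Picard, SAMtools 1.5 and cutadapt 2.10. Settings, and how replicates were combined, are not stated there. The deposited narrowPeak lists hold, for each peak, an interval, a summit and the authors' fold enrichment, a ratio on a linear scale. They also hold −log10 p-values and −log10 q-values from the authors' peak caller. The smallest −log10 q was 1.3 in both lists. Signal tracks that the labels name were not used here.

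Peaks of 1 interval were joined (the highest fold and −log10 p kept), and intervals of D0 and D15 were merged with pandas 2.3.3 and numpy 2.4.6 (Python 3.11.15, figures with matplotlib 3.10.9). Merging and counting were tested on simulated intervals, where the overlap count was compared with that of bedtools 2.31.1. With 1 list a day there is no test between days, and Wilson intervals at 95% cover counting error only. Genes came from RefSeq, GRCm38.p6. The 18 gene lists (242 genes), the 55 genes always named, the 16 motifs and the comparison itself were chosen with earlier results of these data known, and the miRNA list after the files were seen. Beyond these 55, the rule named, per list, up to 3 genes with most D0-only and D15-only regions, and, over all genes, the 10 with most of each, the 10 strongest and the 5 broadest or most split regions of a class; other genes were chosen after their values were seen. Alternatives were equal numbers, stricter thresholds, other overlaps, other distances and neighbouring lists. Some single genes are not reported here.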

Additional observations from a re-analysis of the deposited data

How the results depend on the processing

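Depth is unknown, so how near to the calling threshold a region of 1 day lay on the other day was not tested. No paired analysis was possible because both replicates of a day share 1 list, and for the same reason no replicate was left out in turn. Motifs around summits were not searched, since no genome was used.

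Counts of shared regions and of promoter windows stayed within 1.5 times under every alternative that was run for them. Shared intervals numbered 14091 at D0 and 14019 at D15 in full, and 13566 and 13630 where the summit had to lie inside an interval. At a fold of at least 5 they numbered 9379 and 9376. The D0-only count was 12733 with equal numbers, 9582 at −log10 q of at least 5 and 8938 at a fold of at least 5, and the D15-only count was 7242 and 5320 at the last pair. In the order equal numbers, q and fold, the median D0 width was 643, 700 and 709 bp, and several summits were in 17.3%, 20.2% and 19.6% of D0 intervals. For D15 the q and fold values were 830 and 886 bp, and 40.7% and 42.3%.

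In the order equal numbers, q, fold and all genes of the table, non-coding ones included, 71.3%, 75.8%, 78.5% and 73.9% of shared regions lay within 1 kb of a gene end. For D0-only regions these were 6.79%, 9.79%, 11.8% and 12%, and for D15-only regions 14%, 22.1%, 27.1% and 17.1%. Over 50 kb from a gene were 3.21%, 2.15%, 2.04% and 1.0% of shared and 17.5%, 16.1%, 16.6% and 4.77% of D15-only regions. For D0-only regions q, fold and all genes gave 32.6%, 32.1% and 14.8%. With equal numbers, D0-only regions were called in 59.3% at 2i and 55.9% at D1, and D15-only regions in 45.4% at D8 and 53.3% at D10.

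The D15-only share of a list minus that of all genes kept its sign in 79 of the values and reversed in 11. Calcium genes reversed to −0.5 points with equal numbers and −1.7 at fold 5. Skeletal muscle genes reversed to 11.1 with equal numbers, 51.5 at q, 57.8 at fold and 0.8 within 100 kb. Blood genes reversed to −19.9 at q and −42.2 at fold, epithelial junction genes to −23.5 and −22.2, and formative genes to 0.7 within 20 kb. The cause was not tested.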

Other observations

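D15-only regions were a larger share of the regions of 1 day on some chromosomes than on others. The share was 48.8% (Wilson 95% interval 44.9 to 52.7) on chromosome 19 and 46.2% (43.8 to 48.6) on chromosome 11. It was 30.1% (28.2 to 32.1) on chromosome 8 and 31.3% (29.3 to 33.5) on chromosome 6.

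Regions of 1 day were also bunched along chromosomes. In bins of 1 Mb, the bin of chromosome 2 that starts at 167000001 held 30 D15-only and 4 D0-only regions, 5 of the former at Ptgis, of prostacyclin synthase. The bin of chromosome 4 that starts at 129000001 held 27 and 5. On the other side, the bin of chromosome 8 that starts at 65000001 held 30 D0-only regions and no D15-only region, 10 of them at Marchf1. The bin of chromosome 5 that starts at 86000001, with the Tmprss11 protease genes, held 30 D0-only regions and 1 D15-only region.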
